A study of Mus musculus with 4 samples.

Results

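The cells described here are mouse D3 embryonic stem cells taken 96 h after transfection with siRNA against Pnpla6, called silenced cells, and the control cells of the same time. They were measured on the 2 arrays whose titles give 96 h, of 4 arrays in the series, chosen by those titles. Each array carried RNA of silenced and of control cells side by side, in Cy3 and Cy5. Silenced RNA was in Cy3 on replicate 1 and in Cy5 on replicate 2. The other 2 arrays, of the same design at 24 h, served here to estimate how far the dyes shift each probe and the spread between arrays, and gave a value of Pnpla6 for comparison. D3 is an established line of mouse embryonic stem cells. Per the labels, 1.25 pmol of each siRNA was given with a lipid reagent (RNAiMAX lipofectamine), and all cells were grown as embryoid bodies without LIF. The treatment of the control cells is not given in the labels, nor how many siRNAs there were, or whether the replicate arrays hold RNA of separate cultures. The p-values therefore measure only the spread between these arrays, which may be technical. Most of that spread is pooled over all genes by limma (33.9 prior and 1 residual degrees of freedom). A small p-value is thus not a measure of how closely a gene's own arrays agree.

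Pnpla6 encodes neuropathy target esterase, a phospholipase on the cytoplasmic face of the endoplasmic reticulum. It degrades phosphatidylcholine, the main phospholipid of animal membranes. LIF is the cytokine that holds mouse embryonic stem cells in the undifferentiated state. When it is withdrawn and the cells aggregate, embryoid bodies form an outer layer of primitive endoderm, which matures into visceral and parietal endoderm, around a core that passes through an epiblast-like stage.

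Fluorescence was modest on both arrays. The median spot read 63 and 61 in Cy3, where local background was 21 and 19, and 130 and 124.5 in Cy5, where it was 64 and 58. No spot was saturated. Per channel 66.0% to 68.7% of spots were well above background, and the test covered 21752 genes, of which 13132 carry a symbol and the rest a transcript name. Precision is limited by the number of arrays. Replicate 1 shared its slide with the 24 h arrays and replicate 2 lay on another slide. Markers were present for the cell type the labels give: 8 of 8 markers of undifferentiated embryonic stem cells and 4 of 4 epiblast markers were above background on both arrays in both RNAs.

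The targeted gene showed no detectable difference from control at 96 h. On replicate 1 the normalized log2 intensity of Pnpla6 was 10.48 in control and 10.61 in silenced cells, and on replicate 2 it was 10.48 and 10.37. The log2 ratios were 0.12 and −0.11, with a mean of 0.01 (SE 0.06, n = 2 arrays, limma adjusted p = 0.96). With the dye bias of the 24 h arrays taken off, the arrays gave −0.01 and 0.03, and a second Pnpla6 probe gave 0.01. The silenced level thus lay above control on one array and below it on the other. At 24 h the same probe was lower in the silenced cells, at −0.87. The difference between the times is given in the closing observations.

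Many transcripts differed at 96 h, mostly by small amounts. In limma 2927 of 21752 genes changed (13.5%), 1443 higher (6.63%) and 1484 lower (6.82%). The median change among them was 0.25 in log2 units, and 1613 changed by less than 1.2-fold. Among larger changes falls prevailed: 23 genes were higher (0.106%) and 119 lower (0.547%) by 1.5-fold or more, and 2 were higher (0.00919%) and 19 lower (0.0873%) by 2-fold or more. With log ratios centred on the median in place of loess, 1798 genes changed, 1126 higher and 672 lower, so the balance of directions among small changes rests on the normalization. The dye term, which coincides with the replicate number and so blocks on it, decides how many changes are seen: without it 106 genes changed, 15 higher and 91 lower. With a background offset of 16 in place of 50 there were 1015, 430 higher and 585 lower. From the authors' log ratios limma called 0 genes, with 3847 at an unadjusted p under 0.05. With 1 of the 96 h arrays left out no dye term can be fitted, and the lone 96 h array is assumed to vary like the others; such models gave 29 calls without replicate 1 and 32 without replicate 2, to be set against the 106.

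The arrays shared little before dye bias was accounted for. Over all genes the 2 arrays gave ratios of 1 sign in 51.3%, with a Pearson correlation of 0.15 across the 21752 genes, which are not independent. After the dye bias measured at 24 h was taken off each array, which shares those arrays' noise between both, the correlation was 0.40. Over all genes 55.6% then had 1 sign on both arrays. Among the 2927 changed genes the arrays shared a sign for 2761 as measured and 2892 after the dye bias was removed. For changes of 1.5-fold or more this held for 141 of 142 genes and then for 142 of 142. Changed genes were called from these same arrays, so much of their agreement follows from the call and is no separate support. The 31 listed cytosolic ribosomal protein genes, among the most abundant transcripts of any cell, had a large bias. Their median was −0.49 on replicate 1 and 0.50 on replicate 2, whereas the dye term over all genes had a standard deviation of 0.11. The mean ratios of these 31 genes had a median of −0.01. Of them limma called 0, with 7 at an unadjusted p under 0.05. Rps28, a ribosomal protein gene outside this list, was called higher (0.31).

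**Figure D1:**
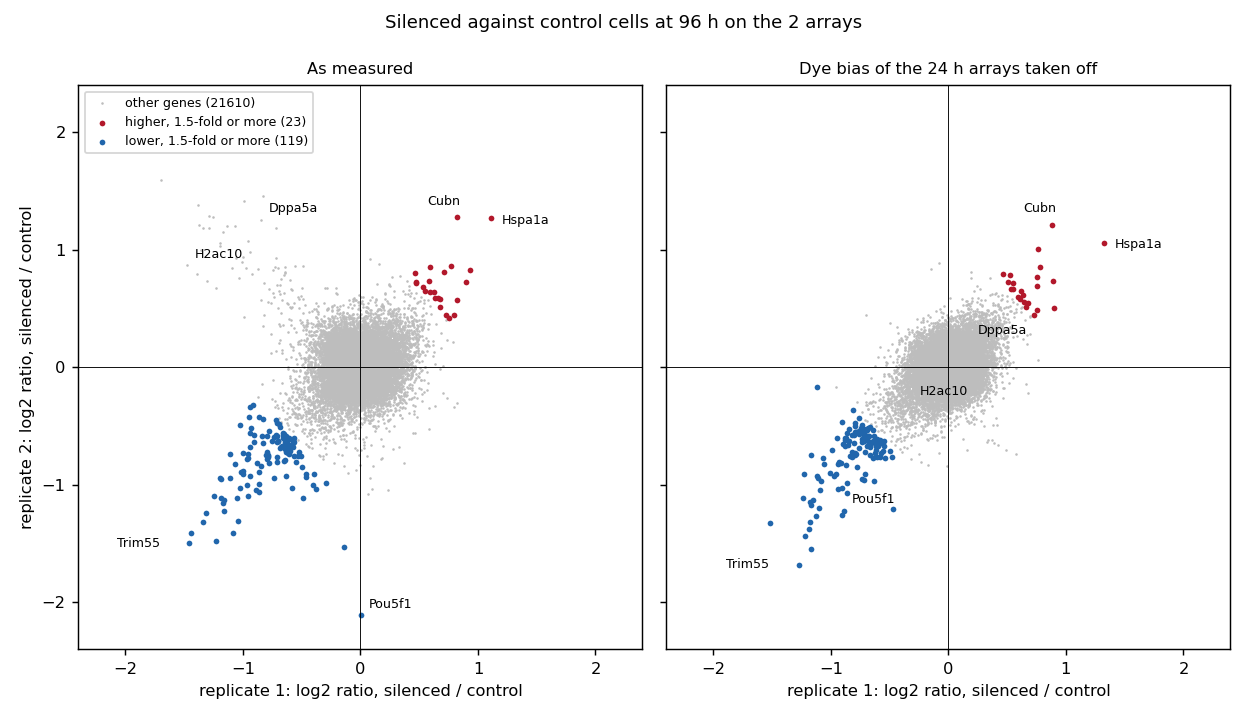
Log2 ratio of silenced to control cells for 21752 genes on replicate 1 (horizontal axis) and replicate 2 (vertical axis), as measured on the left and with the dye bias of the 24 h arrays taken off on the right; red points are the 23 genes higher and blue points the 119 genes lower by 1.5-fold or more. The blue points fill the lower left, and the streak of grey points at the upper left, with H2ac10 and Dppa5a, moves towards 0 once the dye bias is removed.

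The largest rise was that of Hspa1a, the inducible cytosolic Hsp70 chaperone. Its normalized log2 intensity was 8.96 and 8.71 in control cells and 10.08 and 9.98 in silenced cells, so both silenced values lay above both control values. The ratios were 1.11 and 1.27, a 2.28-fold rise (SE 0.06, limma adjusted p = 2.2e-16). Of its 3 other probes, 2 also rose, by 1.22 and 0.73, and the remaining probe gave 0.11. Cubn, the endocytic receptor cubilin of the visceral endoderm and kidney, followed with 0.82 and 1.27, a 2.07-fold rise (limma adjusted p = 1.1e-14), from log2 intensities of 7.41 and 7.17 to 8.22 and 8.45. Tgfbi, a secreted adhesion protein of the matrix, gave 0.94 and 0.83. Sfrp1, a secreted Wnt antagonist, gave 0.77 and 0.86, and its other probe 0.40. These 4 genes were higher in the silenced RNA whichever dye it carried.

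The other large rises lay between 1.52-fold and 1.69-fold. They were Crtac1 (0.71 and 0.81), which encodes a secreted matrix protein, and Vax2 (0.59 and 0.86), a homeobox factor of the ventral eye. Aqp8 (0.83 and 0.57) is a water channel and Srgn (0.58 and 0.73) the proteoglycan core serglycin. Ly75 (0.68 and 0.58) is an endocytic lectin receptor, Acss1 (0.66 and 0.59) the mitochondrial acetyl-CoA synthetase and Spp1 (0.59 and 0.64) osteopontin. Mras (0.64 and 0.59) is a small GTPase of the Ras family and Klk1 (0.53 and 0.69) a tissue kallikrein. Klhdc7a (0.80 and 0.45) was also among the 15 largest rises, but its other probe gave 0.06. Without the dye term 11 of the 15 rises were called, and Vax2, Ly75 and Klhdc7a were among those that were not.

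The largest fall was that of Trim55, a RING finger protein of striated muscle. Its log2 intensity was 11.60 and 12.05 in control and 10.14 and 10.55 in silenced cells, which gave ratios of −1.46 and −1.50 (2.79-fold lower, SE 0.07, limma adjusted p = 4.3e-18). Fndc3c1 gave −1.44 and −1.41, and its other probe −1.10. Tagln, the actin-binding protein transgelin of smooth muscle, gave −1.09 and −1.41, and its other probe −1.38. Slc39a8, a zinc and manganese importer, gave −1.25 and −1.10, with −0.79 on its other probe. For each of these 4 genes both silenced values lay below both control values.

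Anxa3, a membrane-binding annexin, gave −1.18 and −1.11, and Nes, the intermediate filament nestin of progenitor cells, −1.11 and −0.94. Pim2, a serine/threonine kinase that promotes survival, gave −0.96 and −1.09 and fell on its 2 other probes as well, by 0.86 and 1.02. Ccn1, a matricellular target of YAP and SRF, gave −0.87 and −1.07, and Ifi27l2a, an interferon-inducible gene, −1.02 and −0.90 with −0.75 on its other probe. The calcitonin receptor Calcr gave −1.0 and −0.91 and its other probe −0.33. All 15 falls were called without the dye term.

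Other probes did not always follow the tested one. Pdpk1, the kinase that activates Akt, gave −1.34 and −1.31 (2.51-fold lower), but its 2 other probes gave 0.08 and 0.07. The integrin subunit gene Itga1 gave −0.97 and −1.0, and its other probe 0.01. Ddx25, a testicular RNA helicase, gave −1.16 and −1.22, and its other probe −0.16. Grb10, an imprinted adaptor that restrains insulin signalling, gave −1.03 and −1.02, and its other probes fell less, by 0.35 and 0.21. Among the 142 genes changed by 1.5-fold or more, 39 had another measured probe; in 37 of them every other probe had the same sign, in 30 another probe changed the same way on its own, in 0 the opposite way, and in 9 no other probe changed the same way. Smaller changes were less often seen again: of all 749 called genes with another measured probe, 611 had the same sign on every other probe, in 292 another probe was called the same way, in 9 the opposite way and in 457 none the same way. Probes of a gene measure different parts of its transcripts, and which transcript forms they detect was not tested.

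**Figure D2:**
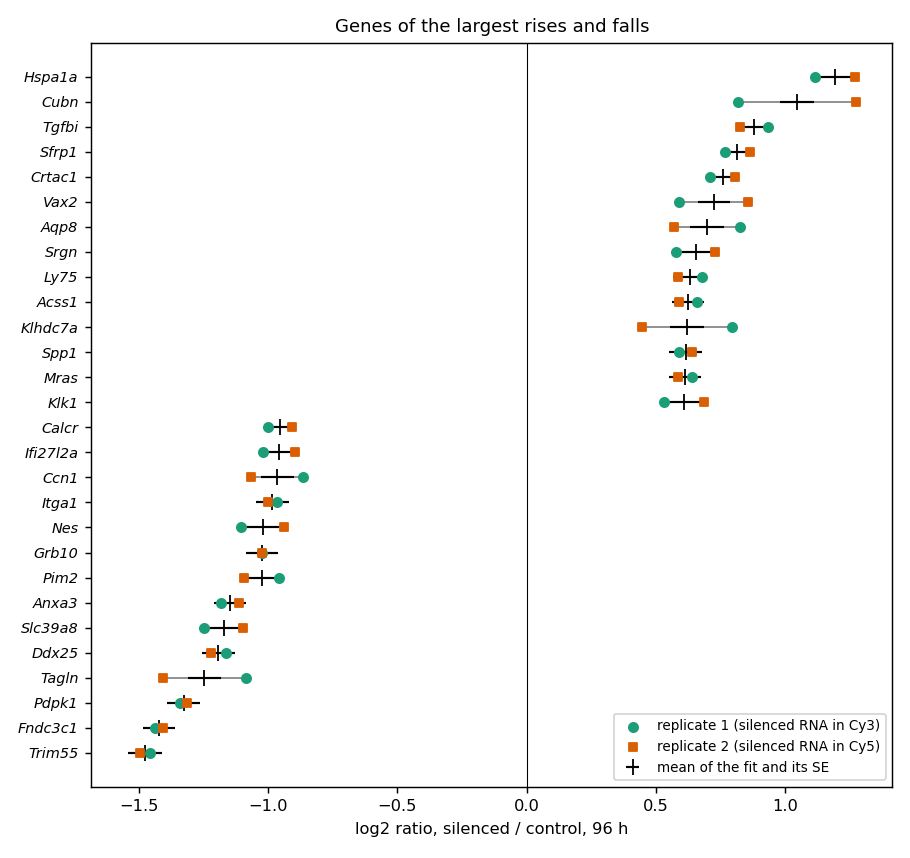
Log2 ratio of silenced to control cells at 96 h for genes among the 15 largest rises and 15 largest falls; circles are replicate 1, squares replicate 2, and ticks with bars the fitted mean ± SE from 2 arrays. By the rule that chose the genes, both arrays lie on the same side of 0. Values run from Trim55 at −1.46 and −1.50 to Hspa1a at 1.11 and 1.27.

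**Figure D3:**
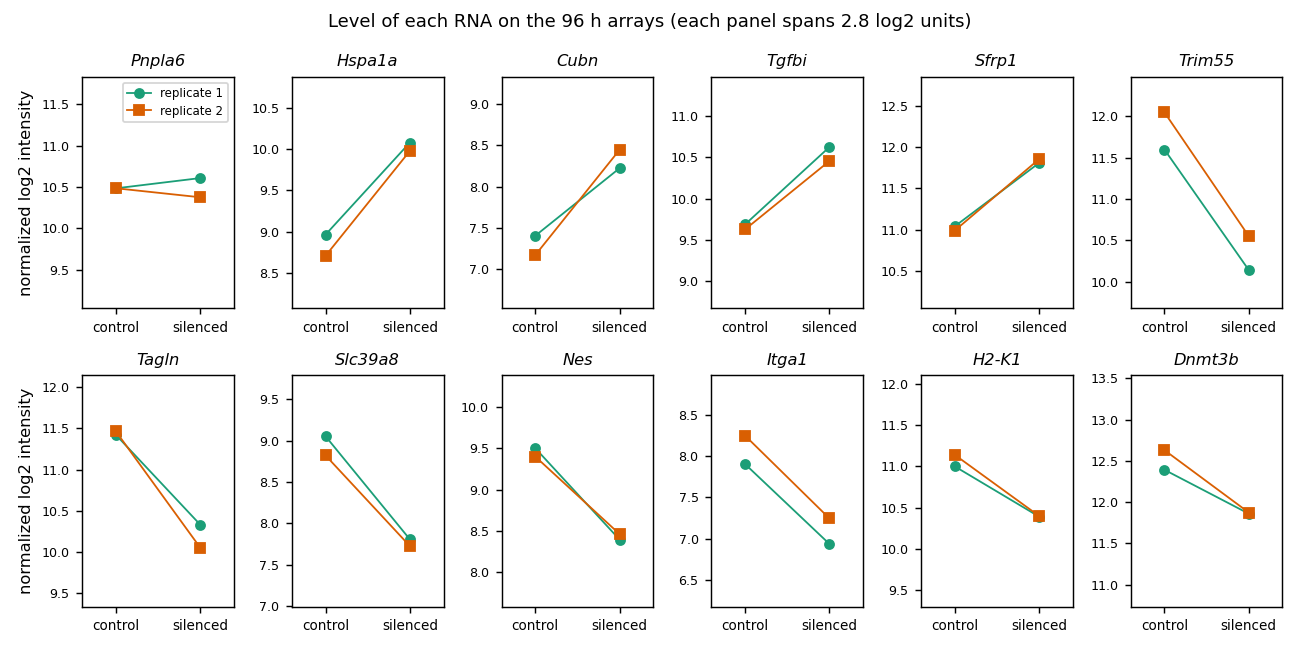
Normalized log2 intensity of 12 genes in control and silenced RNA on replicate 1 (circles) and replicate 2 (squares), joined within an array; every panel spans 2.8 log2 units. Pnpla6 stays within 10.37 and 10.61, Hspa1a climbs from 8.96 and 8.71 to 10.08 and 9.98, and the lines of Trim55, Tagln, Slc39a8, Nes, Itga1, H2-K1 and Dnmt3b slope down on both arrays.

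**Figure D4:**
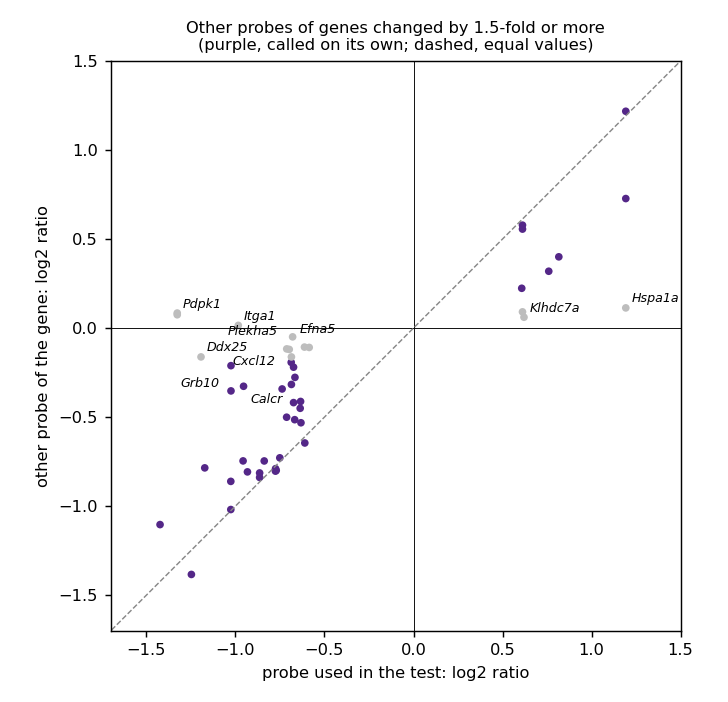
Log2 ratio of other probes (vertical axis) against that of the probe used in the test (horizontal axis) for genes changed by 1.5-fold or more that have several measured probes; purple points were called on their own, and the dashed line marks equal values. Most points share the sign of the tested probe, while those of Pdpk1 (0.08 and 0.07) and Itga1 (0.01) lie near 0.

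Genes of the contractile actin cytoskeleton fell together. Of 33 measured genes of actin filaments and of targets of the actin-regulated factors SRF and YAP, 15 fell and none rose. Their median was −0.18 against 0.00 over all genes tested. Counts of this and later groups stand beside 6.63% of all genes that rose and 6.82% that fell. Besides Tagln, Anxa3 and Ccn1, the calponin gene Cnn1 gave −0.96 and −0.77 and Ccn2, a matricellular YAP target, −0.65 and −0.80. Smaller falls were those of the focal adhesion protein Zyx (−0.36), the tropomyosins Tpm2 (−0.34), Tpm1 (−0.28) and Tpm4 (−0.24), the LIM protein Fhl2 (−0.28), Actb (−0.25) and Actc1 (−0.22). The other probes of Tpm1 and Tpm2 fell by 0.45 and 0.43. Acta2, the smooth muscle actin, did not pass on the brighter probe (−0.19), and its other probe fell by 0.64. Srf itself gave −0.10 and Flna −0.11. The skeletal actin Acta1, named after its value was seen, gave −0.87 and −0.89, and the LIM protein Pdlim3 −0.79 and −0.76. With no dye term 5 of the 15 falls were called. In such bulk RNA fewer cells of a type and less RNA per cell cannot be told apart. Of 20 markers of feeder fibroblasts, which also hold this contractile programme, 14 were above background, and 3 rose and 5 fell. Their summed log2 intensity was 12.29 and 12.20 in control and 12.22 and 12.18 in silenced cells, Col3a1, Lum and Postn were not well above background, and their part in the result was not tested.

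SRF binds a short element called the CArG box. In RefSeq windows from 250 bases before to 50 after the start of transcription, searched on both strands, it was present in 7 of 27 genes of this group with a window (25.9%) and in 1.62% of 10522 tested genes. Of the 11 that fell and have a window 2 held it, Actc1 and Fhl2, and Tagln has no window among those used. Actg1, Cnn2, Fhl1, Srf and Vcl held it as well but did not pass. Stretches of genes that fell are shown 5′ to 3′ with the box in capitals. They are those of Actc1 (GRCm38.p6 chr2:114052878-114052957), Fhl2 (chr1:43196813-43196892) and Acta1 (chr8:123894804-123894883), all on the minus strand. Acta1 is not in the list and was added after its value was seen. The box begins 47, 96 and 73 bases before the start. A match is a description of the sequence and not a measured binding site.
Actc1: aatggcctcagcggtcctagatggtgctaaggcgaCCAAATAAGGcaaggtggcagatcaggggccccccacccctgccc
Fhl2: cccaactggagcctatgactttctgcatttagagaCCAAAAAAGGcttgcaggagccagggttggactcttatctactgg
Acta1: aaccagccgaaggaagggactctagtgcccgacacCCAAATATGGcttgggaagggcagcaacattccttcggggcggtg

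Simple epithelial genes were lower as well. Of 23 measured keratins and junction genes 10 fell and 2 rose, with a median of −0.12. Cldn7, a tight junction claudin, gave −0.49 and −1.12, and Krt8, the keratin of simple epithelia, −0.63 and −0.92 with −0.80 on its other probe. Cldn3 (−0.49), the splicing regulator Esrp1 (−0.41) and Cldn6 (−0.29) followed, while the plakoglobin gene Jup (0.21) and Krt7 (0.19) rose. Krt18, the partner of Krt8, fell by 0.22. The adherens junction gene Cdh1 gave 0.28 and −0.20, so its arrays differed in sign, and Epcam gave 0.11 and −0.34. With the dye term left out, none of these changes was called, and with median centring 4 of the 10 falls were.

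Genes of antigen presentation fell. All 12 measured genes of MHC class I presentation had a negative mean ratio, 10 of them on both arrays, 9 fell, none rose, and the median was −0.29. H2-K1, a class I heavy chain, gave −0.61 and −0.74 (1.59-fold lower, limma adjusted p = 3.5e-10), with −0.22 and −0.42 on its other probes. Psmb10 (−0.51 and −0.43) and Psmb8 (−0.24 and −0.40) are catalytic subunits of the immunoproteasome, Tapbp (−0.28 and −0.42) loads peptide onto class I molecules, and Erap1 (−0.34 and −0.31) trims it. The light chain B2m gave −0.38 and −0.19, and its other probe −0.23. Tap2 gave −0.08 and did not pass. When the dye term was omitted, H2-K1 alone was called, and with an offset of 16 or median centring 5 of the 9 were. H2 genes share long stretches of sequence, so their probes may also detect related genes.

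Several interferon-inducible GTPases, which act against intracellular parasites, fell. This group was assembled after its values were seen. Of 11 measured members 5 fell and none rose: Gbp2 (−0.79 and −0.72), Irgm2 (−0.62 and −0.67), Igtp (−0.65 and −0.61), Gbp2b (−0.44 and −0.68) and Irgm1 (−0.33 and −0.51). Gbp5 (0.15), Gbp9 (0.12) and Tgtp1 (−0.01) did not pass. In the wider interferon response 5 of 20 genes fell and 2 rose. Irf1, the transcription factor upstream of class I genes, gave −0.37 and −0.38, Oasl2 −0.67 and −0.33 and Parp14 −0.38 and −0.25. Bst2 fell, at 0.18 and −0.78 as measured and −0.18 and −0.42 with the dye bias of the 24 h arrays taken off. The membrane protein Ifitm1 rose (0.28 and 0.41). Isg15 was at −0.10. In a model lacking the dye term 3 of the 5 GTPase falls and none of the interferon response changes were called.

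The interferon-stimulated response element was searched as a pair of GAAA separated by 2 bases, on both strands of the same windows. It stood in 9 of 9 GTPase genes with a window, in 3 of 11 class I genes and in 9 of 16 interferon response genes, against 3.54% of 10522 tested genes. The GTPase genes without a change held it as well as those that fell. Stretches of Gbp2 (GRCm38.p6 chr3:142620569-142620648), Irgm2 (chr11:58214878-58214957) and B2m (chr2:122147513-122147592), all on the plus strand, are shown with the element in capitals; in Gbp2 it is read on the opposite strand. It begins 59, 64 and 139 bases before the start.
Gbp2: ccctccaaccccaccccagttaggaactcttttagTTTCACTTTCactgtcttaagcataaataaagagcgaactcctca
Irgm2: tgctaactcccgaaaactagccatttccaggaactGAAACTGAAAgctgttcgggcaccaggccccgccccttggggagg
B2m: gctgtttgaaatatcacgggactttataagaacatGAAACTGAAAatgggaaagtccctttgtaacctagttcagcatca

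Secreted matrix proteins rose more often than they fell. Of 17 measured adhesion proteins of the matrix 8 rose and 3 fell, with a median of 0.15. After Tgfbi, Crtac1, Srgn and Spp1 came fibronectin, Fn1 (0.52 and 0.35, other probes 0.36 and 0.19), the latent TGF-beta binding protein Ltbp1 (0.33 and 0.43, other probe 0.05) and the galectin Lgals3 (0.49 and 0.23). Lgals1 went the other way (−0.56 and −0.64), as did Efemp1 (−0.51 and −0.48) and the thrombospondin Thbs1 (−0.41 and −0.18). Has2, which makes hyaluronan and was named after its value was seen, gave −1.0 and −0.88. Without the dye term Tgfbi, Crtac1, Srgn and Spp1 were called.

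In the basement membrane, the sheet laid down under endoderm, 7 of 23 measured genes rose and 1 fell. The nidogens Nid1 (0.29 and 0.65) and Nid2 (0.39 and 0.28) link laminin to collagen IV, and the collagen chains Col4a1 (0.47 and 0.19) and Col4a2 (0.36 and 0.24) rose with them, also on their other probes (0.33 and 0.37). The laminin chains did not pass: Lama1 gave 0.03, Lamc1 0.06 and Lamb1 −0.13. Fras1, a basement membrane protein of epithelia, fell (−0.42 and −0.61). Among 15 integrin subunits 3 rose, Itgb7 (0.58 and 0.37), Itgb4 (0.30 and 0.39) and Itga9 (0.36 and 0.28), and Itga1 fell. The laminin and fibronectin receptors Itga6 (0.13) and Itga5 (0.17) did not pass. With no dye term no basement membrane gene was called, and of the integrins Itga1 alone.

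Proteases of lysosomes and secretions rose in number, in a list written after values were seen. Of 15 measured members 9 rose and 2 fell, with a median of 0.27. Klk1 was joined by its relatives Klk1b3 (0.43 and 0.48) and Klk1b4 (0.52 and 0.33), whose sequences are close enough that probes may not tell them apart. The pepsinogen gene Pga5 gave 0.55 and 0.57 and the cathepsin Ctsh 0.48 and 0.55. Ctsd gave 0.68 and −0.01 as measured and 0.41 and 0.26 with the dye bias of the 24 h arrays taken off, and its other probe rose by 0.27. Ctsa gave 0.70 and 0.01, then 0.32 and 0.39, and its other probes 0.37, which also rose, and 0.10. Ctsc fell (−0.25 and −0.22). With the dye term left out, 2 of the 9 rises were called.

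Visceral endoderm genes were mixed. This tissue takes up nutrients for the embryo through the receptors cubilin, amnionless and megalin. Of 27 measured genes 5 rose and 3 fell. Cubn and its membrane anchor Amn (0.42 and 0.17) rose, with Aqp8, transferrin Trf (0.27 and 0.16) and the apolipoprotein Apom (0.25 and 0.17). The megalin gene Lrp2 fell (−0.32 and −0.18; other probes −0.22, −0.43 and −0.09), as did Amot (−0.64 and −0.63), a scaffold that binds YAP, and Slc13a4 (−0.21). The endoderm regulators Gata4 (−0.09), Gata6 (−0.04), Sox17 (0.07) and Foxa2 (0.05) did not pass, nor did Afp (0.17). Of 8 visceral endoderm markers 5 were above background on both control arrays and 6 on both silenced arrays, Ttr and Apoa1 on none. The summed log2 intensity of the markers was 9.54 and 9.49 in control and 9.85 and 9.93 in silenced cells. This sum includes Cubn and Amn, the only markers of the 8 called higher. Hnf4a (−0.03), like Afp, Gata6 and Sox17, did not pass. Whether the share of such cells differed was not tested. When the dye term was omitted, Cubn, Aqp8 and Amot were called.

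Many pluripotency genes rose, while several genes of the primed epiblast fell. Of 32 measured pluripotency genes 15 rose and 4 fell, with a median of 0.16, and 17 were positive and 3 negative on both arrays. Tcl1, a coactivator of Akt, rose most (0.45 and 0.59), then Lefty2 (0.48 and 0.31), Esrrb (0.30 and 0.44), Sox2 (0.27 and 0.46) and Tbx3 (0.25 and 0.47). The 4 falls were Pou5f1, described in the next paragraph, Lin28a (−0.49 and −0.21), Rif1 (−0.33 and −0.31) and Dppa2 (−0.06 and −0.40). Nanog was at −0.09 and 0.10 and did not pass. Of 18 epiblast and primitive streak genes 6 fell and 1 rose, with a median of −0.03. Fgf5, the classic epiblast ligand, gave −0.95 and −0.42, Wnt3 −0.62 and −0.66, the POU factor Pou3f1 −0.66 and −0.60 and the de novo methyltransferase Dnmt3b −0.53 and −0.75. Fgf8 fell by 0.32, and the other de novo methyltransferase, Dnmt3a, rose (0.29 and 0.24). The epiblast marker Otx2 (−0.01) and the streak genes T (−0.14), Eomes (0.00) and Gsc (−0.03) did not pass. In a model lacking the dye term no pluripotency gene was called, and Wnt3 and Pou3f1 were. With an offset of 16 there were 4 rises and 2 falls among pluripotency genes, and 5 falls among epiblast and streak genes.

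The 2 arrays disagreed on Pou5f1, the central pluripotency factor Oct4. Its log2 intensity was 13.70 in control and 13.71 in silenced cells on replicate 1, but 14.35 and 12.24 on replicate 2. The ratios of 0.01 and −2.11 gave a mean of −1.05, which passed in limma with the dye term (adjusted p = 1.1e-14) and did not pass without it (adjusted p = 0.64). With the dye bias of the 24 h arrays taken off, the arrays gave −0.89 and −1.22. Without replicate 2 the value was 0.01 and no call was made. Among genes that passed with opposite signs on the arrays, the others with the widest gap were Rps28 (−0.83 and 1.46), H2ac10 (−1.47 and 0.87), Dppa5a (−0.84 and 1.26) and H2aj (−1.31 and 0.73). With the dye bias taken off, each of these 4 had 1 sign on both arrays, for example −0.30 and −0.30 for H2ac10. None of these 5 genes was called without the dye term.

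**Figure D5:**
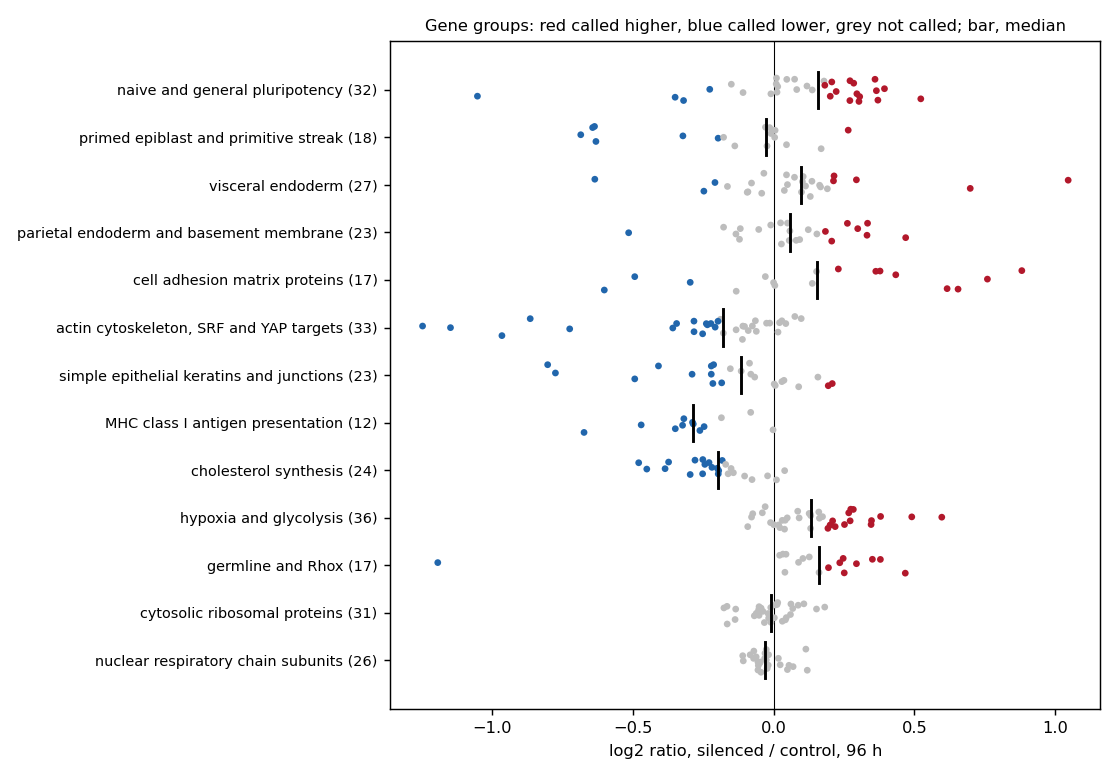
Log2 ratio of silenced to control cells at 96 h for the measured members of 13 gene groups, with the number measured in brackets; red points rose, blue points fell and grey points did not pass in limma, and black bars are medians. All points of antigen presentation lie below or at 0, hypoxia genes have 14 red and no blue points, and ribosomal and respiratory chain genes have grey points only.

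Both Lin28 genes fell. In a list of fetal RNA-binding proteins and other oncofetal genes written after values were seen, 6 of 11 measured genes fell and 2 rose, with a median of −0.23. Lin28b, which blocks maturation of let-7 microRNAs, gave −0.70 and −0.63 (other probe −0.28) and Lin28a −0.49 and −0.21. Igf2bp3, an mRNA-binding protein of fetal tissue, gave −0.48 and −0.56, and its other probes −0.30 and −0.35. Prtg, a surface receptor of the early embryo, gave −0.79 and −0.75 (other probe −0.80). Igf2bp2 (0.28 and 0.22) rose, and Mycn was called higher with arrays of −0.06 and 0.59, or 0.10 and 0.44 with the dye bias taken off. Without the dye term 2 of the 6 falls were called.

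Germ cell genes were higher. Of 17 measured members 8 rose and 1 fell, with a median of 0.16. Stra8, which marks entry into meiosis, gave 0.37 and 0.57, and the piRNA pathway genes Mael 0.38 and 0.38, Mov10l1 0.57 and 0.14 (other probe 0.16) and Piwil2 0.35 and 0.24. The meiotic gene Hormad1 rose by 0.25. Dazl, an RNA-binding protein of germ cells, gave 0.23 and 0.16 and its other probe 0.30. The X-linked homeobox genes Rhox5 (0.02), Rhox6 (0.04) and Rhox9 (0.13) did not pass, and Ddx25 fell. With no dye term none of the 8 rises was called. Of 15 enzymes of DNA and histone methylation 4 rose and 2 fell. The Polycomb partner Jarid2 (0.23) was among the rises, and Kdm5b among the falls (−0.04 and −0.60 as measured, −0.34 and −0.30 with the dye bias taken off, other probe 0.13).

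Several Wnt ligands, receptors and antagonists changed. In a list of ligands, export, receptors and planar polarity written after values were seen, 8 of 35 measured genes fell and 4 rose. Wls, which carries Wnt proteins to the surface, gave −0.75 and −0.63, Wnt8a −0.60 and −0.71 and Wnt3 fell as given above. The planar polarity gene Prickle1 gave −0.59 and −0.68 (other probe −0.41) and the receptor Fzd2 −0.36 and −0.75. Lrp5 gave −0.10 and −0.90, and −0.17 and −0.83 with the dye bias taken off. Among 11 secreted or membrane antagonists 4 rose and 1 fell: besides Sfrp1, Shisa2 (0.28), Sfrp4 (0.25) and Dkkl1 (0.24) rose and Sfrp2 (−0.24) fell. Of 12 Wnt target genes 1 fell, Cdx1 (−0.20), and none rose, with Axin2 at −0.06 and Lef1 at 0.02. With the dye term left out, 4 of the 8 falls and Sfrp1 were called.

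Other signalling groups had a few large members. Among 17 genes of BMP signalling the Id factors, its immediate targets, fell: Id1 (−0.51 and −0.76, other probe −0.53), Id3 (−0.57 and −0.62) and Id2 (−0.35 and −0.44), with Bmpr2 at −0.25. Id4 rose (0.35 and 0.25), and the ligand Bmp4 (0.05) did not pass. In the hedgehog pathway Gli3, its main repressor, fell (−0.83 and −0.44), while the activator Gli2 (0.50 and 0.26) and the targets Gli1 (0.21) and Ptch1 (0.18) rose, 4 of 12 up and 1 down. Of 21 FGF pathway genes 4 fell, Fgf5, Fgf8 and the ERK phosphatases Dusp6 (−0.36 and −0.29) and Dusp4 (−0.24), and 2 rose, Spred2 (0.25) and Fgfr4 (0.22). In the Notch pathway 2 of 12 genes were called (16.7%, near the 13.5% of all genes), both higher, Notch4 (0.32) and Dll1 (0.29). When the dye term was omitted, Id3 was called in these groups.

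Contact signalling by ephrins was split within the family, in a list written after values were seen. Of 16 measured genes 5 rose and 4 fell. The receptor Epha1 (−0.58 and −1.03) and the ligand Efna5 (−0.68 and −0.68, other probe −0.05) fell most. Epha4 (0.09 and 0.49, other probe 0.13), Ephb3 (0.45 and 0.08) and Efnb3 (0.24) rose. Of 23 kinases and adaptors of growth factor signalling 4 fell and 3 rose. Pdpk1, Pim2 and Grb10 fell by more than 2-fold on the tested probe. Sgk1 (0.33 and 0.37) and Kit (0.28 and 0.34) rose. In a model lacking the dye term 1 of the 4 ephrin family falls was called, and the falls of Pdpk1, Pim2 and Grb10 were.

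Neural and muscle genes showed isolated falls. Of 26 neural genes 4 rose and 4 fell: Nes and the neurofilament gene Nefl (−0.96 and −0.78) fell, with Zic2 (−0.40) and Ina (−0.37), while Vax2, Ncam1 (0.33 and 0.78), Dll1 and Lhx2 (0.21) rose. Of 4 other Ncam1 probes 1 gave 0.80 and the others 0.03 to 0.14. The neural regulators Sox1 (0.00) and Pax6 (0.03) did not pass. Of 26 striated muscle genes 5 rose and Trim55 fell, and its relatives Trim54 (−0.17) and Trim63 (0.09) did not pass. Mybpc3 (0.26 and 0.43), Myl7 (0.26 and 0.32), Ryr2 (0.25, other probe −0.06), Myl2 (0.23) and Casq2 (0.19) rose, and the giant sarcomere gene Ttn was at 0.03. Of 18 endothelial and blood genes 5 rose, among them Vwf (0.48 and 0.36, other probe 0.18), Vegfa and Eng (0.48 and 0.18), and Etv2 (−0.36) fell. Cdh5 and Hbb-bh1 were not well above background. Without the dye term Nes, Nefl and Trim55 were called in these groups.

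Cholesterol synthesis genes fell together. Of 24 measured enzymes and regulators 15 fell and none rose, with a median of −0.20. Msmo1 gave −0.53 and −0.43 and Fdps −0.42 and −0.48. Hmgcs1, an early enzyme of the pathway, gave −0.41 and −0.36 (other probe −0.07). Srebf2, the transcription factor of the pathway, gave 0.17 and −0.61 as measured and −0.08 and −0.36 with the dye bias taken off. No fall in this group reached 1.5-fold, and none was called without the dye term. With an offset of 16 there were 4 falls and with median centring 5. In the list of fatty acid synthesis 4 of 17 genes rose, with Acss1, the mitochondrial enzyme described above, and Acss2 (0.27) largest. In this list 1 gene fell, Acsl3 (−0.35), and Fasn (−0.16) and Scd1 (−0.01) did not pass.

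The sterol regulatory element, searched as TCACNCCAC on both strands, stood in 1 of 16 cholesterol genes with a window and in 1.49% of 10522 tested genes. The gene that held it was Hmgcs1 (GRCm38.p6 chr13:119690179-119690257, plus strand), where it begins 137 bases before the start and is shown in capitals.
Hmgcs1: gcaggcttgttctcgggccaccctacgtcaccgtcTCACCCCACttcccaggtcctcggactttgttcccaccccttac

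In the pathway of Pnpla6 itself changes were small. Of 36 measured genes of phospholipid and choline metabolism 6 rose and 3 fell, with a median of 0.06. Chpt1, which makes phosphatidylcholine, gave 0.40 and 0.32, but its other probes −0.01 and 0.04. Gde1 (0.34 and 0.25), a glycerophosphodiesterase, the choline transporter Slc44a1 (0.21 and 0.29), Bhmt (0.45 and 0.11), Lypla1 (0.24, other probes 0.08 and 0.10) and the Pnpla6 relative Pnpla7 (0.41 and 0.08) rose. Selenoi, which makes phosphatidylethanolamine, fell (−0.43 and −0.20, other probes −0.24 and −0.05), as did Lpin2 (−0.21) and Pemt (−0.19). The rate-controlling enzyme Pcyt1a was at −0.01 and the glycerophosphocholine esterase Gpcpd1 at 0.13. None of these changes was called without the dye term.

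Hypoxia and glycolysis genes were higher. Of 36 measured genes 14 rose and none fell, with a median of 0.13. Ndrg1 gave 0.68 and 0.51, Pfkp 0.69 and 0.30 (other probe 0.00), P4ha1 0.57 and 0.19 (other probe 0.19), Vegfa 0.24 and 0.46 (other probes 0.47 and 0.44) and Ankrd37 0.42 and 0.28. Bnip3 (0.28 and 0.27), a mitophagy receptor, and the oxygen sensor Egln1 (0.15 and 0.42, other probe 0.04) also rose. Canonical targets that did not pass were Car9 (−0.01), Pdk1 (0.02), Slc2a1 (0.00) and Pgk1 (0.04). None of the 14 rises was called without the dye term, and 5 were with an offset of 16.

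The core of the hypoxia response element, ACGTG, stood in 24 of 33 windows of this group (72.7%) and in 28.3% of those of 10522 tested genes. Of 12 genes that rose and have a window 9 held it. Bnip3 (GRCm38.p6 chr7:138909574-138909648) and Egln1 (chr8:124949283-124949357), both on the minus strand, are shown as members that rose, with the core in capitals. In Bnip3 matches on both strands overlap and also form an E-box. The match in Egln1 begins 68 bases before the start.
Bnip3: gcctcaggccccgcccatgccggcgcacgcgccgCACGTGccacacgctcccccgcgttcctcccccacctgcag
Egln1: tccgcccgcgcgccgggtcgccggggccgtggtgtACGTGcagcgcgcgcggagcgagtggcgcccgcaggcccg

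Hspa1a stood out among heat shock genes. Of 22 measured heat shock genes 3 rose and 2 fell. The small heat shock genes Hspb8 (0.39 and 0.17) and Hspb1 (0.14 and 0.24) rose, Hspe1 (−0.22) and Hspa4l (−0.21) fell, and the inducible co-chaperones Dnajb1 (0.04) and Hsph1 (−0.04) and the factor Hsf1 (−0.12) did not pass. In the endoplasmic reticulum 17 of 19 chaperone genes had a positive ratio, but only Sdf2l1 (0.38 and 0.11) and Xbp1 (0.42 and 0.03) rose, and the main chaperone Hspa5 was at 0.06. In the amino acid response Nupr1 (0.53 and 0.23), Ddit3 (0.39 and 0.23) and Gpt2 (0.23) rose, while the serine synthesis enzymes Phgdh (−0.22 and −0.63, other probes −0.39 and −0.39) and Psat1 (−0.30 and −0.39) fell, 3 up and 2 down of 21. Atf4 (0.15) and Asns (0.15) did not pass. With no dye term Hspa1a was called and the other genes of this paragraph were not.

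Among p53 targets and apoptosis genes 4 of 31 rose and 5 fell. Bcl2, the survival factor, gave −0.66 and −0.56 (other probe −0.65), and Perp, a p53-induced junction protein, −0.40 and −0.42. Gadd45b (0.45 and 0.36, other probe 0.43) and Mcl1 (0.47 and 0.26, other probe 0.13) rose, whereas the p53 targets Cdkn1a (0.12) and Bax (0.08) did not pass. Immediate early genes divided: Fos (0.28 and 0.60) and Ier3 (0.40 and 0.42) rose, and Junb (−0.54 and −0.43, other probe −0.37), Jun (−0.33 and −0.36), Myc (−0.20 and −0.47, other probes −0.26 and −0.24), Zfp36 (−0.27) and Atf3 (−0.25) fell among 18. Glutathione transferases Gstp1 (0.44 and 0.36, other probe 0.23) and Gstm1 (0.41 and 0.36, other probe 0.35) rose and Gpx8 (−0.22) fell among 21 genes of oxidative stress, a called share of 14.3% near that of all genes, and the classic stress gene Hmox1 (0.05) did not pass. Among 24 metal transport genes Slc39a8 stood out, the iron exporter Slc40a1 gave −0.49 and −0.25 and the zinc exporter Slc30a1 −0.26 and −0.26, and the zinc importer Slc39a14 rose (0.28 and 0.18, other probe 0.19). Mt2 was called lower (−0.24), with −0.76 and 0.28 as measured and −0.22 and −0.26 with the dye bias taken off. With the dye term left out, Bcl2 and Slc39a8 were called.

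Called shares differed among proliferation and housekeeping genes, beside 13.5% of all genes. They were 19.2% for DNA replication and G1/S, 4.35% for mitosis, 0% for the respiratory chain and 66.7% for histone genes. Of 26 genes of DNA replication and G1/S 1 rose, Cdkn2a (0.22), and 4 fell, Cdkn1c (−0.25), Ccne1 (−0.20), Slbp (−0.19) and Cdkn1b (−0.18). Of 23 mitotic genes Cdc20 fell (−0.20) and none rose, and of 26 nuclear-encoded respiratory chain genes limma called 0, with 0 at an unadjusted p under 0.05. Histone genes, listed after values were seen, were called lower in 19 of 33 cases and higher in 3, but for 14 of these 22 calls the arrays shared a sign. The linker histones H1f5 (−0.38 and −1.03) and H1f1 (−0.54 and −0.49) fell on both. None of the histone calls held without the dye term, and 3 falls held with an offset of 16. Histone genes of a class are nearly identical in sequence, so single genes are uncertain.

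Among imprinted genes, 13.3% of paternally and 38.5% of maternally expressed ones were called, beside 13.5% of all genes; the difference was not tested. Of 15 paternally expressed genes 2 fell, Peg10 (−0.94 and −0.34) and Nnat (−0.21), and none rose, with Igf2 at 0.05, Mest at 0.03 and Dlk1 at 0.01. Of 13 maternally expressed genes 3 fell, Grb10, Phlda2 (−0.37 and −0.28, other probe −0.25) and Cdkn1c, and 2 rose, Cd81 (0.07 and 0.50) and Tspan32 (0.39 and 0.14). In the trophoblast list 4 of 15 fell, Krt8, Peg10, Phlda2 and Krt18, and Esrrb and the homeobox gene Esx1 (0.17 and 0.52) rose. The trophoblast markers Elf5 and Tpbpa were not well above background on any 96 h array. Of 18 retinoic acid genes 2 rose and 3 fell: the retinol-metabolizing enzyme Dhrs3 gave −0.73 and −0.28 (other probe −0.35), the receptor Rarb −0.22 and Crabp2 −0.19, while Cyp26a1 (0.21) and Stra8 rose. When the dye term was omitted, Grb10 was called and the other genes of this paragraph were not.

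Interstitial matrix and fibroblast markers moved in both directions. Of the 14 measured feeder markers 5 fell, Cxcl12 (−0.84 and −0.58, other probe −0.12), Dcn (−0.61 and −0.26), Col1a2 (−0.40 and −0.30), Thy1 (−0.34 and −0.30, other probe −0.08) and Twist1 (−0.21). Fbln2 (0.41 and 0.53), the receptor Pdgfrb (0.37 and 0.46) and Col5a1 (0.44 and 0.30, other probe −0.09) rose, and the main interstitial collagen Col1a1 was at 0.05. In a model lacking the dye term Cxcl12 was called.

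Transcripts without a gene symbol took part in the large changes. Of the 23 genes higher by 1.5-fold or more 5 had no symbol, and of the 119 lower 33, including 7 of the 19 that fell by 2-fold or more. Calls depended on brightness. When the tested genes were divided by signal into 5 bins of equal size, 4.34% were called in the dimmest bin and 19.2% in the middle bin, and 1 of the 142 changes of 1.5-fold or more lay in the dimmest bin. Changes of dim transcripts were thus called less often, and the share that was missed cannot be read from these arrays.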

How the data were processed

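Each array held 45018 spots, 1639 of them controls, of an Agilent 2-colour design; 200 ng of RNA was labelled, per the labels' protocols. The deposited intensity values are median pixel intensities of a spot and its local background in each dye, not normalized, which per the file headers come from Feature Extraction 10.7.1.1. The submitters' processing notes name Feature Extraction 10.7 and limma. The deposited log10 ratios are of Cy5 over Cy3 after that software's background and dye correction. The authors' series table equals them with the sign turned on some arrays, within 4.967e-06, and they served as an alternative.

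Here intensities were background-corrected (normexp, offset 50) and normalized within arrays (loess, controls at weight 0) in limma 3.58.1 (R 4.3.3). Spots marked as non-uniform or as population outliers in either dye were left out (96 on replicate 1 and 107 on replicate 2). Spots of a probe were averaged. Probes were kept if well above background on both arrays of 24 h or both of 96 h, in at least 1 RNA. This kept 28080 of 41174 probes. The brightest probe stood for a gene. Gene symbols were given by matching the transcript names of the array files to RefSeq transcripts. Names without a match were kept as they stood and are the genes without a symbol. Normalized log2 intensities come from Aquantile scaling.

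The model had a mean per time and a dye term over all 4 arrays, which leaves 1 residual degree of freedom, and calls are two-sided at a Benjamini-Hochberg adjusted p under 0.05 over 21752 genes. Dye orientation coincides with the replicate number, so this term is also the replicate block; the labels do not say that same-numbered arrays share anything else. The dye bias taken off single arrays came from the 24 h arrays alone. On simulated data of this design 42% of changes of 0.2 and 100% of changes of 0.4 in log2 units were recovered, 50 of each among 21752 genes, with 3 false calls. The simulated noise had the spread that the model fitted, and the dye bias was the same at both times. The simulation therefore cannot show whether these assumptions hold for the arrays, or how many of the real calls are false.

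The arrays and gene lists were chosen with earlier results of these data known, and 6 lists were written after values were seen, as said beside them. Named genes are Pnpla6, the 15 largest rises and falls with 1 sign on both arrays, up to 5 rises and 5 falls of each list (the 2 smallest p-values where none passed), and the 5 called genes whose arrays differed in sign by the largest gap. List members that did not pass, smaller changes and members of the 6 lists were named after their values were seen. Lists got no set test. Promoter windows are RefSeq's, of GRCm38.p6, matched by symbol for 10522 tested genes. Alternatives were the model without the dye term, the 96 h arrays alone, other background, normalization and filter settings and every probe tested. Further alternatives were population outlier spots kept, chosen after the data were seen, and each 96 h array left out. Some genes that this rule names are not reported here.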

Additional observations from a re-analysis of the deposited data

Results flagged for a closer look

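The effect of silencing on its target differed between the times. Pnpla6 had a log2 ratio of −0.87 at 24 h (limma adjusted p = 1.8e-11) and 0.01 at 96 h, and the test of the difference in the same model gave 0.87 (SE 0.088, limma adjusted p = 5.3e-09). The 96 h arrays gave 0.12 and −0.11.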

How the results depend on the processing

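Of 2927 genes called at 96 h, 106 (15 higher, 91 lower) were called without the replicate block, which is the dye term, and 114 (16 and 98) from the 96 h arrays alone. An offset of 16 gave 1015 (430 and 585), median centring 1798, with 672 lower, and the authors' log ratios 0 (0 higher, 0 lower), with a lowest adjusted p of 0.17. Models that leave out 1 of the 96 h arrays, and with it the dye term, gave 29 to 32 calls, 1 to 2 higher and 27 to 31 lower, to be set against the 106; without replicate 2 the value is also that within the first slide. The cause of these differences was not tested. The other settings stayed within 1.5 times the counts. The 30 largest rises and falls kept their direction under all of the settings that were run across all genes, and 26 of them were called without the block. As measured, with dye bias in place, direction turned when 1 array was left out for the following genes, given without replicate 1 and then without replicate 2: Pnpla6 (−0.11 and 0.12), H2ac10 (0.87 and −1.47), H2aj (0.73 and −1.31), Mt2 (0.28 and −0.76), Ei24 (−0.26 and 0.74), Sdhc (−0.13 and 0.36), Rpl4 (−0.072 and 0.43), Rps28 (1.46 and −0.83), Pou5f1 (−2.11 and 0.0065), Dppa5a (1.26 and −0.84) and Bst2 (−0.78 and 0.18). With the dye bias of the 24 h arrays taken off, both arrays had 1 sign for each of these except Pnpla6 and Rpl4. In the dimmest of 5 bins of signal 4.34% of genes were called, and why was not tested.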
